A study of Mus musculus with 8 samples.

Results

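The genes described here build and run motile cilia: 70 genes named as dynein heavy chains (Dnah), radial spoke heads (Rsph), tektins (Tekt), cilia and flagella associated proteins (Cfap) or intraflagellar transport proteins (Ift), with Foxj1, Rfx2, Rfx3, Rfx4, Hydin, Ccdc39, Ccdc40, Spag6, Spag16 and Spag17. The rule that picks them uses gene names and no measured value, and was applied to the 18193 genes that had a probe set of their own on the array. The rule and the other gene lists below were, however, chosen with earlier results of these data known. Counts set against all genes therefore describe these arrays and are not an independent test. RNA of the hippocampus of female mice was hybridised to 8 Affymetrix Mouse Genome 430 2.0 arrays, 2 in each of 4 groups. LM4m and LM8m were littermate controls of the Tg6799 strain at 4 and 8 months of age, and MT4m and MT8m were AD mutant mice of the same strain at the same ages. Tg6799 mice carry human amyloid precursor protein and presenilin transgenes with familial Alzheimer's disease mutations, driven by the Thy1 promoter in neurons. The labels name no treatment. They do not say whether an array held the RNA of 1 animal or of several, and the design text counts 2 littermates but 4 mutants at each age, so each p-value rests on array-to-array spread that may be technical.

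Motile cilia beat on the ependymal cells that line the brain ventricles and move cerebrospinal fluid. Their core, the axoneme, is a ring of doublet microtubules around a central pair. Dynein arms on the doublets produce the force, radial spokes pass signals from the central pair to the arms, and tektins and many Cfap proteins sit inside or between the microtubules. Intraflagellar transport carries axoneme parts along every cilium, including the immotile primary cilium that neurons and astrocytes bear. FOXJ1 and the RFX proteins are the transcription factors that switch on these genes.

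RFX proteins bind the X-box, a near-palindrome of 14 bases close to the start of many cilia genes. The windows below come from the RefSeq promoter table (build GRCm38.p6, 250 bases before to 50 after each start), read 5′ to 3′ on the gene's strand, with the letters that matched the X-box on either strand in capitals. They show the sequence of 3 genes that were lower in the mutants at an unadjusted p under 0.05 (Tekt1, Cfap52, Cfap161), of Cfap45, and of Cfap36, the gene with the largest positive difference.
Tekt1, chr11:72361878-72361921, minus strand: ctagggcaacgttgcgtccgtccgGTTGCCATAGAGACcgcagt
Cfap52, chr11:67965639-67965682, minus strand: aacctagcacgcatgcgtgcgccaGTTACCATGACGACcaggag
Cfap161, chr7:83794867-83794910, minus strand: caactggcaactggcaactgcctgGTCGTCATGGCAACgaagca
Cfap45, chr1:172521087-172521130, plus strand: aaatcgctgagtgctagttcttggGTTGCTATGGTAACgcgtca
Cfap36, chr11:29247278-29247321, minus strand: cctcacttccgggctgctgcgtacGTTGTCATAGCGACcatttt

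The table held 65 promoters of 58 of the 70 genes. An X-box matched in 9 of the 65 (13.8%), against 400 of all 32851 promoters (1.22%), and 8 of the 9 started within 50 bases before the gene start. The other genes with a match were Cfap221, Cfap57, Cfap70 and Dnah17, and 0 Ift genes had one. The shorter GTTGCC, searched on both strands and able to overlap an X-box as in Tekt1 and Cfap161, matched 20 of the 65 (30.8%) against 12.5% of all promoters. Genes with GTTGCC included 5 Ift genes, Ift140, Ift172, Ift27, Ift57 and Ift88. The forkhead motif GTAAACA, also searched on both strands, matched 4 (6.15%) against 3.65%. A match is a description of these letters and not a measured binding site.

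The labels were checked on Thy1, whose promoter drives the transgenes. Its log2 value was between 9.53 and 9.96 on the 4 littermate arrays and between 11.73 and 11.82 on 3 mutant arrays, but it was 9.90 on the library labelled MT8m replicate 1. Gene tables that accompany the study head the littermate columns as AD and the mutant columns as littermates. Every direction given here follows the GEO labels, mutant minus littermate, and so is opposite to those tables. For the labelled tissue, Neurod6, a gene of pyramidal neurons, was between 8.21 and 8.71 on all 8 arrays and Prox1, of granule neurons, between 4.86 and 6.08. Foxj1, the marker of motile ciliated cells, was dim, between 2.06 and 2.83, where the median of all probe set means was 2.475. The brightest probe sets of 37 of the 70 genes lay below that median and those of 33 at or above it. These files hold no detection calls, so for the dim genes part of each value may be background signal.

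In the hippocampus of mutants, the 70 genes were mostly lower than in littermates by small differences, and none of them passed the test across the array. Averaged over both ages, the 4 mutant arrays were lower in 54 genes and higher in 16, where of all 18193 genes 9739 were lower and 8454 higher, with a median difference of -0.07 on the log2 scale, against -0.01 over all 18193 genes. At an unadjusted p under 0.05, 12 of the 70 (17.1%) differed, all of them lower, against 4.64% of all genes that were lower at that p and 6.72% that differed in either direction. None reached an adjusted p under 0.05 (limma with Benjamini-Hochberg adjustment over 45037 probe sets), where 0.06% of all probe sets did. All 4 mutant arrays lay below all 4 littermate arrays in 8 of the 70 (11.4%), against 2.42% of all genes, and above them in 0, against 1.28%. These 8 were Rsph1, Rsph4a, Cfap126, Cfap65, Dnah6, Cfap161, Spag16 and Cfap221. Without the library labelled MT8m replicate 1, the median difference of the 70 genes was -0.08. The median of the 70 genes varied between replicate arrays with an SD of 0.0645, near the size of that median difference. By the mean deviation of the 70, LM4m replicate 1 (0.02) and LM8m replicate 1 (-0.02) lay near the mutant arrays (-0.09 to -0.03). LM4m replicate 2 (0.09) and LM8m replicate 2 (0.16) stood higher. In whole tissue, fewer ciliated cells and less RNA per ciliated cell cannot be told apart.

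**Figure D1:**
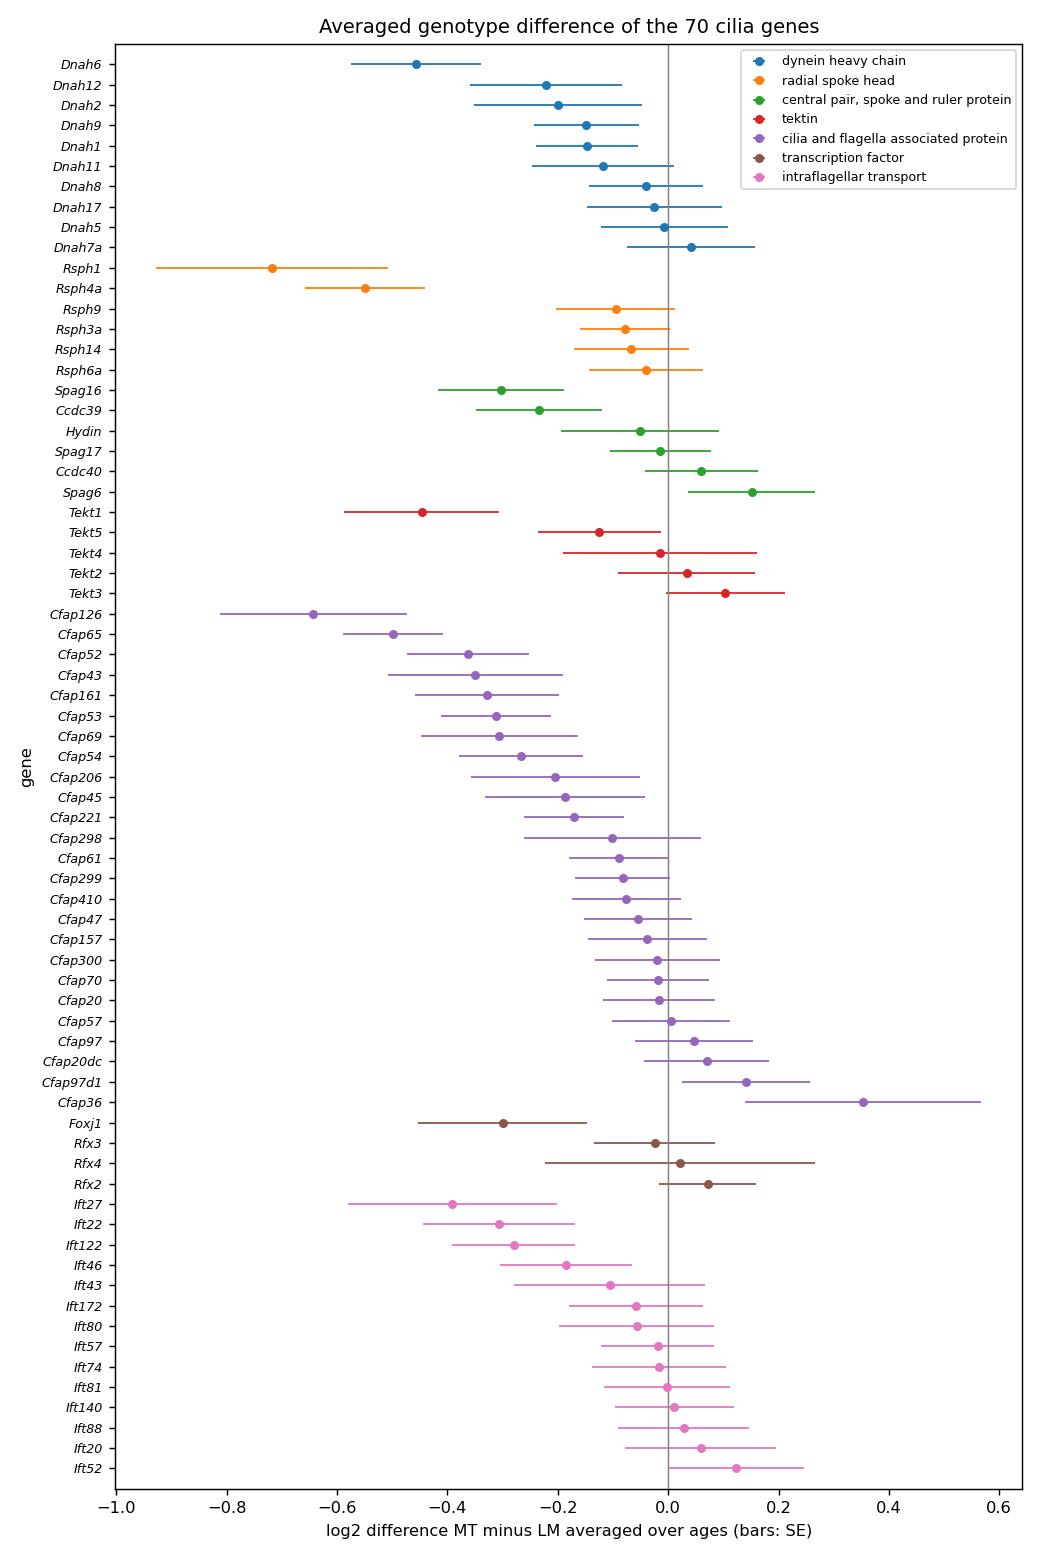
Averaged genotype difference (mutant minus littermate, log2, x axis) of each of the 70 genes (y axis), coloured by role. Points are differences from the limma model over 8 arrays and bars are 1 standard error. Most points lie left of 0, with Rsph1 farthest at -0.72, and Cfap36 is farthest right at 0.35.

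The radial spoke heads held the largest difference. Rsph1, a spoke head protein, read 4.17 and 4.84 in LM4m, 3.62 and 3.94 in MT4m, 4.36 and 5.21 in LM8m, and 4.12 and 4.03 in MT8m. The groups did not overlap at either age, and LM8m replicate 2 was the highest array. The averaged difference was -0.72 ± 0.21 (SE), or 1.64-fold lower, with a 95% interval from -1.20 to -0.24 and an adjusted p of 0.775. Rsph4a, which forms the spoke head with Rsph1, read 3.61 and 3.37 in LM4m, 2.86 and 3.05 in MT4m, 3.35 and 3.64 in LM8m, and 2.92 and 2.93 in MT8m. Its littermate values lay together and its mutant values lay together, with little difference between ages. The averaged difference was -0.55 ± 0.11, 1.46-fold lower, with an interval from -0.80 to -0.30 and an adjusted p of 0.343. Rsph9, Rsph3a, Rsph14 and Rsph6a differed by -0.10 to -0.04, so the whole group of 6 lay on the lower side with 2 at an unadjusted p under 0.05.

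Of the 10 dynein heavy chains, 9 were lower and 1 higher in the averaged contrast, with a median of -0.13. Dnah6, an inner arm chain, read 3.15 and 3.13 in LM4m, 2.50 and 2.88 in MT4m, 3.35 and 3.61 in LM8m, and 3.11 and 2.92 in MT8m. Mutants were below littermates at each age, and both genotypes read higher at 8 months. The averaged difference of -0.46 ± 0.12 (1.37-fold lower) had an adjusted p of 0.689, and Dnah6 was the only heavy chain at an unadjusted p under 0.05. The inner arm chains Dnah12 and Dnah2 differed by -0.22 ± 0.14 and -0.20 ± 0.15. The outer arm chains Dnah9, Dnah11 and Dnah5 differed by -0.15 ± 0.10, -0.12 ± 0.13 and -0.01 ± 0.12. For these 5 chains the difference was less than 2 standard errors.

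The central pair, spoke and ruler proteins and the tektins were more mixed. Spag16, a central pair protein, differed by -0.30 ± 0.11 (unadjusted p = 0.0282, adjusted p = 0.853, limma), and its 4 mutant values, 1.62 to 1.98, lay just below the 4 littermate values, 1.99 to 2.16. The other Spag16 probe sets, also dim, differed by -0.12, -0.02 and 0.07. Ccdc39, of the ruler that spaces the dynein arms, differed by -0.23 ± 0.11, while its partner Ccdc40 differed by 0.06 ± 0.10. Hydin, Spag17 and Spag6, all of the central pair, differed by -0.05, -0.01 and 0.15, each within 2 standard errors of 0. Tekt1, a filament protein inside the doublets, read 2.53 and 2.67 in LM4m, 2.57 and 2.45 in MT4m, 2.79 and 3.33 in LM8m, and 2.07 and 2.44 in MT8m. It overlapped at 4 months and not at 8 months. Its averaged difference was -0.45 ± 0.14 with an adjusted p of 0.800, and the other tektins lay between -0.13 (Tekt5) and 0.10 (Tekt3).

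The 25 Cfap genes had 20 lower and 5 higher, a median of -0.09, and 6 at an unadjusted p under 0.05. Cfap65, a central apparatus protein, had the smallest p of the 70. It read 2.30 and 2.27 in LM4m, 1.95 and 2.08 in MT4m, 3.02 and 2.82 in LM8m, and 2.16 and 2.23 in MT8m. The LM8m arrays stood above all others, and the mutants lay below littermates at both ages. The averaged difference was -0.50 ± 0.09, 1.41-fold lower, with an interval from -0.71 to -0.29, an unadjusted p of 0.000475 and an adjusted p of 0.267.

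Cfap126, a microtubule-associated protein of the cilium base and axoneme, read 3.81 and 3.97 in LM4m, 3.29 and 3.15 in MT4m, 3.78 and 4.56 in LM8m, and 3.41 and 3.70 in MT8m. Its groups did not overlap at either age. The averaged difference was -0.64 ± 0.17, 1.56-fold lower, with an adjusted p of 0.719. Microtubule inner proteins followed, Cfap52 at -0.36 ± 0.11, Cfap161 at -0.33 ± 0.13 and Cfap53 at -0.31 ± 0.10, and the central apparatus protein Cfap54 at -0.27 ± 0.11. On the other side, Cfap36, a partner of the small GTPase ARL3, differed by 0.35 ± 0.21. It read 6.73 on LM4m replicate 1 and between 7.12 and 7.86 on the other 7 arrays, so the difference rested on that array. Of the 9 genes with an X-box, 7 were lower, with a median of -0.17, beside 54 lower of all 70. Among genes without one, Cfap20 and Cfap97 read above 6 on every array and differed by -0.02 ± 0.10 and 0.05 ± 0.11.

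**Figure D2:**
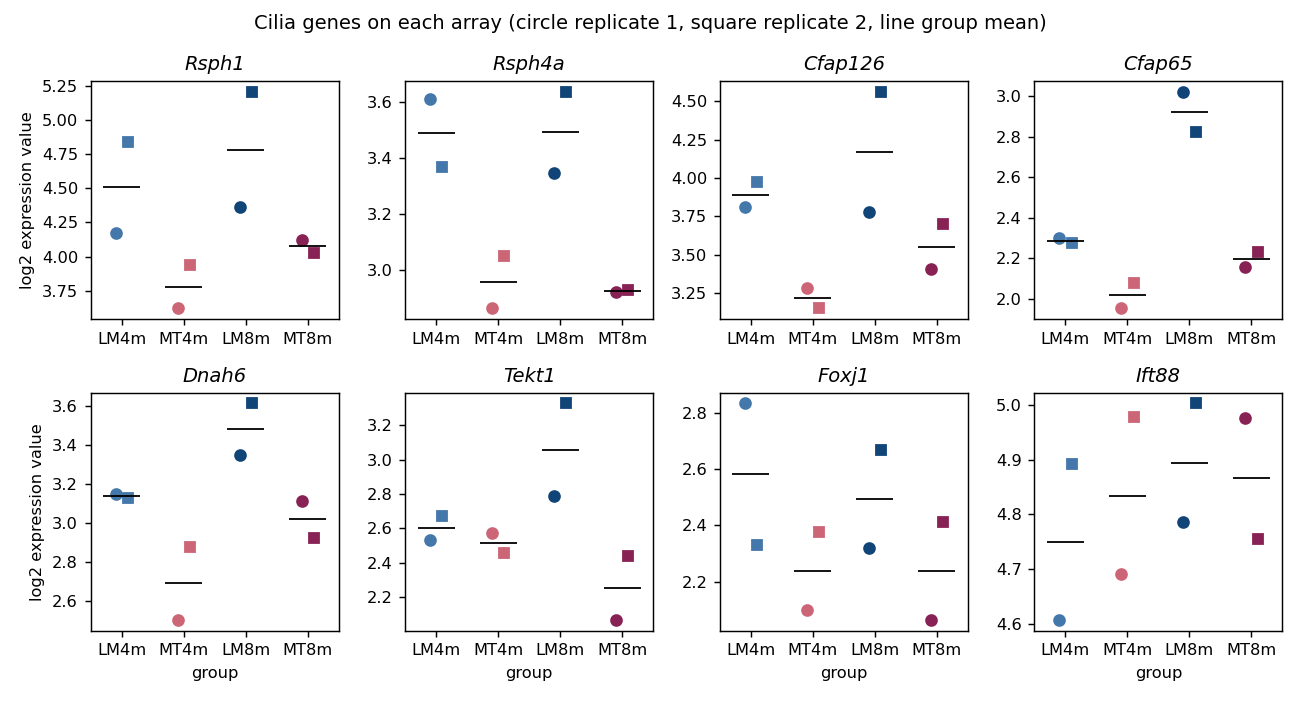
Log2 expression value (y axis, a separate range in each panel) of 8 genes in the 4 groups (x axis). Circles are replicate 1, squares replicate 2 and lines group means of 2 arrays. Rsph1, Rsph4a, Cfap126, Cfap65 and Dnah6 are lower in mutants at each age, Tekt1 only at 8 months, and Foxj1 and Ift88 overlap.

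The transcription factors did not move together. Foxj1, the main regulator of motile cilia, read 2.83 and 2.33 in LM4m, 2.10 and 2.38 in MT4m, 2.32 and 2.67 in LM8m, and 2.06 and 2.41 in MT8m. The groups overlapped at both ages. The averaged difference was -0.30 ± 0.15, with an interval from -0.65 to 0.05 and an adjusted p of 0.853. Rfx2, Rfx3 and Rfx4 differed by 0.07 ± 0.09, -0.02 ± 0.11 and 0.02 ± 0.24, and Rfx4 read 4.11 on the library labelled MT8m replicate 1 and 5.33 on MT8m replicate 2.

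The 14 intraflagellar transport genes, which all cilia use, had a median of -0.04, with 10 lower and 4 higher, against -0.08 for the other 56 members. Only Ift122 was at an unadjusted p under 0.05 (7.14% of the 14), near the 6.72% of all genes. In 0 of the 14 did all mutant arrays lie on one side of all littermate arrays. Among all genes such a split was also rare, 2.42% lower and 1.28% higher, so a count of 0 in 14 says little. Ift122, of the retrograde complex, read 6.31 and 6.27 in LM4m, 6.13 and 5.78 in MT4m, 6.21 and 6.05 in LM8m, and 5.79 and 6.02 in MT8m, a difference of -0.28 ± 0.11 with an adjusted p of 0.853. The small GTPases Ift27 and Ift22 differed by -0.39 ± 0.19 and -0.31 ± 0.14. Ift88, of the anterograde complex, differed by 0.03 ± 0.12, with an interval from -0.24 to 0.30. The difference between the transport genes and the other members was not tested.

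At 4 months alone, 7 of the 70 (10%) were at an unadjusted p under 0.05, against 5.74% of all genes, and 0 passed the adjusted threshold, as did 0% of all probe sets. Rsph1, Rsph4a, Cfap126, Cfap52, Dnah6 and Cfap54 were lower and Rfx2 higher. The other Rfx2 probe sets differed by 0.07, -0.02 and -0.06, and dimmer probe sets of Cfap52 and Cfap54 by -0.004 and -0.09. The 2 mutant arrays lay below both littermate arrays in 23 (32.9%), against 22.9% of all genes, and above them in 6 (8.57%), against 14.8%. Rsph1 differed by -0.73 ± 0.30, Cfap126 by -0.67 ± 0.24, Cfap36 by 0.61 ± 0.30, Ift27 by -0.60 ± 0.27 and Rsph4a by -0.53 ± 0.15, each with an adjusted p of 0.944. Single arrays set much of some of these values. Rsph1 was at -0.39 without LM4m replicate 2 (-1.06 without LM4m replicate 1), Cfap36 at 0.13 without LM4m replicate 1 and 1.09 without LM4m replicate 2, Ift27 at -0.25 without MT4m replicate 2 (-0.95 without MT4m replicate 1), Dnah6 at -0.26 without MT4m replicate 1 and Cfap54 at -0.23 without LM4m replicate 1. With any 1 array left out, Rsph4a, Cfap126 and Cfap52 lay between -0.75 and -0.39. The dynein gene Dnah2 differed by -0.44 ± 0.22. The median difference of the 70 genes at 4 months was -0.08. It was -0.12 without MT4m replicate 1 and -0.07 without MT4m replicate 2.

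At 8 months, 8 of the 70 (11.4%) were at an unadjusted p under 0.05, all lower, against 3.54% of all genes. None passed the adjusted threshold, where 0.02% of probe sets did. Mutants lay below littermates in 19 (27.1%), against 13.8% of all genes, and above them in 1, Cfap20dc, against 13.3%. Tekt1 differed by -0.81 ± 0.20 (1.75-fold lower, adjusted p = 1.00, limma) and Cfap65 by -0.73 ± 0.13 (1.66-fold lower, adjusted p = 0.364, limma). Without the library labelled MT8m replicate 1 these were -0.62 and -0.69. Rsph1, Cfap126, Rsph4a, Cfap53 and Dnah6 followed at -0.71, -0.61, -0.57, -0.48 and -0.46, and Dnah1, an inner arm chain, at -0.34 ± 0.13. The median difference of the 70 genes at 8 months was -0.07. It was -0.18 without LM8m replicate 1, -0.03 without LM8m replicate 2 and -0.13 without the library labelled MT8m replicate 1.

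**Figure D3:**
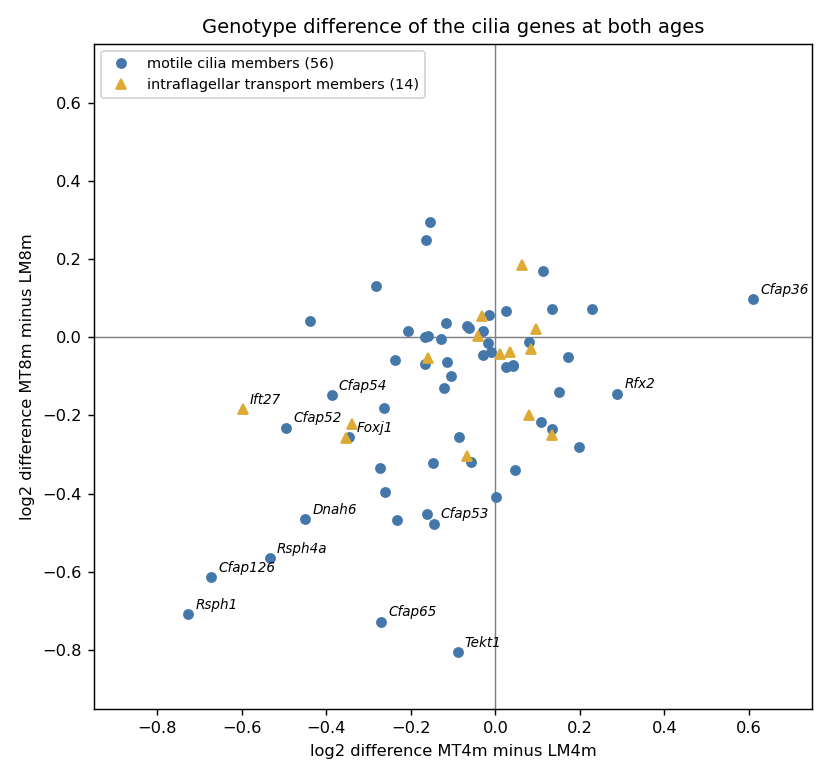
Genotype difference (mutant minus littermate, log2) at 4 months (x axis) against 8 months (y axis) for the 56 motile cilia genes (circles) and 14 intraflagellar transport genes (triangles), each from 2 against 2 arrays. Rsph1, Cfap126, Rsph4a and Dnah6 lie at the lower left, lower at both ages, Tekt1 and Cfap65 lie lowest at 8 months, and Cfap36 stands apart at 0.61 at 4 months.

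Whether the genotype difference changed with age was tested as an interaction. Of the 70, 4 (5.71%) were at an unadjusted p under 0.05, against 2.58% of all genes, and 0 passed the adjusted threshold, as did 0% of probe sets. Tekt1 (-0.72 ± 0.28), Cfap65 (-0.46 ± 0.18), Rfx2 (-0.43 ± 0.17) and Rsph6a (-0.48 ± 0.21), a spoke protein of sperm, all had a lower difference at 8 than at 4 months. Without the library labelled MT8m replicate 1 the values were -0.53 for Tekt1, -0.42 for Cfap65 and -0.39 for Rfx2. For Rsph1, Rsph4a and Dnah6 the interaction was 0.02 ± 0.42, -0.03 ± 0.22 and -0.01 ± 0.23. Without LM8m replicate 2 the interaction was 0.44 for Rsph1 and -0.45 for Tekt1, and without LM8m replicate 1 it was -0.40 and -0.98.

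With age in littermates, 4 of 70 were at an unadjusted p under 0.05, 5.71% against 3.48% of all genes, with 0 past the adjusted threshold, as in 0% of probe sets. Cfap65 was 1.55-fold higher at 8 months (0.64 ± 0.13, unadjusted p = 0.000949, adjusted p = 1.00, limma), and Spag6 and Cfap53 were higher by 0.48 ± 0.16 and 0.35 ± 0.14. Dnah7a, an inner arm chain, differed by -0.46 ± 0.16. In mutants, 5 of 70 (7.14%) were at that p, against 5.78%, again with 0 past the adjusted threshold, as in 0% of probe sets. Cfap54 was higher by 0.41 ± 0.16, and Dnah1, Cfap69, Rsph6a and Rfx2 differed by -0.37, -0.50, -0.35 and -0.28. Dimmer Cfap69 probe sets went the other way, by 0.42 and 0.11. Dimmer probe sets of Cfap54 and Dnah1 differed by -0.008 and -0.02, and those of Rfx2 by 0.003, -0.03 and -0.15. In mutants Cfap65 differed by 0.18 ± 0.13. A moderated F test over the 4 groups placed 10 of the 70 (14.3%) at an unadjusted p under 0.05, against 5.38% of genes, and 0 past the adjusted threshold, where 0.0133% of probe sets were.

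Other cilia genes, taken from lists outside the name rule, were read in the averaged contrast. Of 29 other genes of motile ciliated ependyma, 27 were lower, with a median of -0.32, where 9739 of all 18193 genes were lower. At an unadjusted p under 0.05 there were 14 (48.3%), against 6.72% of all genes, and 0 were at an adjusted p under 0.05. Mia, Tmem212 and Ccdc153 differed by -1.09 ± 0.22, -0.87 ± 0.27 and -0.62 ± 0.21. Among 17 dynein chains, docking and nexin link genes, 13 were lower and 2 (11.8%) were at an unadjusted p under 0.05. Dynlrb2, a dynein light chain, read 4.47 and 4.18 in LM4m, 3.16 and 3.42 in MT4m, 3.96 and 4.94 in LM8m, and 3.19 and 3.56 in MT8m, a difference of -1.06 ± 0.21, larger than that of any of the 70. Of 11 dynein arm assembly factors, 6 were lower and 5 higher, with a median of -0.07. Zmynd10 (-0.40 ± 0.10) and Lrrc6 (-0.32 ± 0.10) were the 2 (18.2%) at an unadjusted p under 0.05. Of 9 genes of transcription and centriole control, 6 were lower and 3 higher, and 0 were at that p.

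Machinery shared with primary cilia was read in the same contrast, where 6.72% of all genes were at an unadjusted p under 0.05. Of 19 further intraflagellar transport genes, 2 were lower at an unadjusted p under 0.05, Wdr35 at -0.32 ± 0.10 and Hspb11, the partner of Ift27, at -0.32 ± 0.12. Next in size was Wdr60, higher by 0.24 ± 0.12, and the list's median was 0.02. Of 12 BBSome genes, which carry membrane cargo, 0 were at that p, with a median of -0.01. The largest differences there were Ttc8 at 0.25 ± 0.14, Bbs7 at 0.24 ± 0.15 and Bbs1 at -0.17 ± 0.09. Of 13 genes of primary cilium signalling 1 was at that p, Ptch1 at -0.25, with a median of -0.06. Larger in size but not at that p were Smo at -0.34 ± 0.21, Gpr161 at 0.32 ± 0.18 and Gli3 at -0.26 ± 0.15.

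Genes of tissues beside the hippocampus were read on the same arrays. All 17 choroid plexus epithelium genes were lower in mutants in the averaged contrast, 11 of them at an adjusted p under 0.05, with a median of -1.92. Of all 18193 genes, 9739 were lower and 18 were at that adjusted p. Kcnj13, an ion channel of that epithelium, read 6.26 to 7.87 on the littermate arrays and 3.21 to 3.61 on the mutant arrays. The mean of the 17 stood 0.63 to 1.70 above their 8-array mean on littermate arrays, highest in LM8m replicate 2, and on mutant arrays between -1.08 and -0.91. All 11 meninges genes were lower, 3 (27.3%) at an unadjusted p under 0.05, against 6.72% of all genes, and 0 at an adjusted one. Their mean was highest on LM4m replicate 1 (1.12) and LM8m replicate 2 (1.17). On the other littermate arrays that mean was -0.36 (LM4m replicate 2) and -0.18 (LM8m replicate 1), within or near the mutant range of -0.63 to -0.21. Choroid plexus cells bear cilia of their own and lie beside ependyma. The part of these tissues in the cilia gene differences was not tested.

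LM8m replicate 2 was also the highest array for 27 of the 70 genes (38.6%), against 9.25% of all genes, and their mean there was 0.16 above the 8-array mean. Without it, the averaged difference was -0.51 for Rsph1, -0.48 for Rsph4a, -0.45 for Cfap126, -0.55 for Cfap65 and -0.36 for Dnah6 in place of the values above. At 8 months alone, Rsph1, Cfap126 and Tekt1 were then at -0.29, -0.22 and -0.54. The median averaged difference of the 70 genes was -0.07 with all arrays and -0.06 without LM8m replicate 2. Without both LM8m replicate 2 and LM4m replicate 1, that median was -0.08. On LM4m replicate 1 the Gapdh control probes read 2.19 log2 units higher at the 3′ than at the 5′ end, a gap that grows as RNA degrades. On the other arrays it ran from 0.657 (LM8m replicate 2) to 1.42 (LM8m replicate 1). The actin control gave the same order, with 2.96 on LM4m replicate 1, 1.67 on LM8m replicate 2 and 2.43 on LM8m replicate 1. The part of RNA quality was not tested.

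Lists of cells within the hippocampus were read on the same arrays. All 6 plaque microglia genes were higher in mutants in the averaged contrast, with a median of 1.87. All 6 were at an unadjusted p under 0.05, against 6.72% of all genes. The library labelled MT8m replicate 1 nevertheless read like the littermates (mean deviation -1.01, against 2.47 on MT8m replicate 2). On that library the 70 cilia genes had a mean deviation of -0.07, where the other mutant arrays were at -0.03, -0.06 and -0.09. The littermate arrays were at 0.02, 0.09, -0.02 and 0.16, so LM4m replicate 1 and LM8m replicate 1 lay near the mutants and LM4m replicate 2 and LM8m replicate 2 above them. The 7 hippocampal neuron genes had a median of 0.00 and the 5 astrocyte genes of 0.20, with Gfap at 1.28 ± 0.46 the largest.

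**Figure D4:**
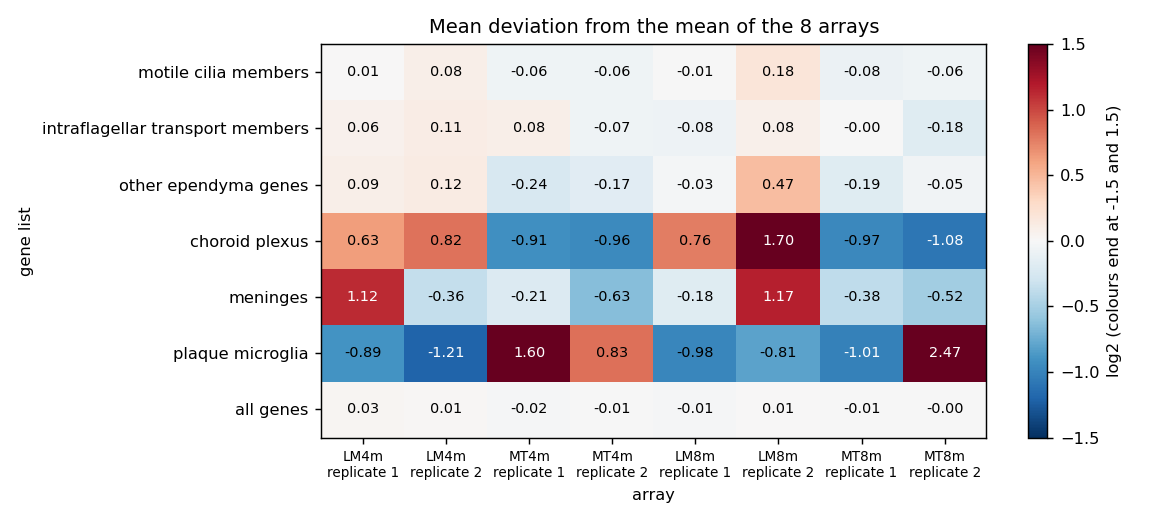
Mean deviation of each gene list (rows) from its 8-array mean on each array (columns), in log2 units, printed in the cells and coloured red above and blue below 0. The motile cilia genes reach 0.18 on LM8m replicate 2, where other ependyma genes (0.47), choroid plexus genes (1.70) and meninges genes (1.17) were also highest.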

How the data were processed

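Hippocampal RNA was measured on 8 arrays. The deposited values are log2 expression values that the authors made with RMA (affy, whose release is not given in the sources used here), which corrects background, quantile-normalizes and summarises probes, so they were not normalized again. After 64 control probe sets were left out, limma 3.58.1 (R 4.3.3) was fitted to 45037 probe sets with 4 group means (lmFit, eBayes), and p-values were adjusted by Benjamini-Hochberg over all of them; the threshold was an adjusted p of 0.05. The fit had 4 residual degrees of freedom, which limits its precision. Each gene was read from its brightest probe set of 1 symbol, and 15 genes that meet the name rule have none and were not analysed here. Named genes included members with the largest differences whose groups did not overlap, and the regulators. From the other lists some genes were named, not always the 3 with the largest differences. Scripts were tested on simulated data. The members and the 12 lists were chosen with earlier results of these data known.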

Additional observations from a re-analysis of the deposited data

How the results depend on the processing

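In each contrast 0 of the 70 genes passed the adjusted threshold under every alternative run, which were brighter probe sets only, normalization by cyclic loess, a prior that was trended and robust, a fit to 1 probe set for each gene, the mean of all probe sets of a gene, only the arrays compared (not run for the averaged contrast, the interaction and the F test), the replicate block and the omission of each array. The smallest adjusted p of any alternative was 0.192 at 4 months, 0.158 at 8 months, 0.0622 for the averaged contrast, 0.519 and 0.513 for age in littermates and mutants, 0.995 for the interaction and 0.151 for the F test.

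At an unadjusted p under 0.05 the averaged contrast gave between 5 and 16 genes. The 5 came from the run on brighter probe sets only and is out of 33 genes, not out of all 70. In the main fit, 7 of those 33 and 12 of all 70 were at that p. In the run on brighter probe sets, 1408 of all 22519 probe sets were at that p. The median difference at 8 months ran from -0.180 without LM8m replicate 1 to -0.0282 without LM8m replicate 2. For age in littermates it ran from -0.09 without LM8m replicate 2 to 0.0612 without LM8m replicate 1, and was -0.10 without both LM4m replicate 1 and LM8m replicate 2, a choice made after seeing the data. For the interaction it ran from -0.14 without LM8m replicate 1 to 0.07 without LM8m replicate 2, and was 0.12 without both arrays just named. The cause was not tested.

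With the replicate block, from the title numbers, the count past the adjusted threshold was 0 in every contrast and 14 genes were at an unadjusted p under 0.05 in the averaged contrast. The deviations of same-numbered arrays from their group means correlated at 0.241 in littermates and -0.175 in mutants, so the numbers were not taken as pairs. With the mutant numbers crossed, a pairing added after seeing the data, the averaged contrast gave 16. Among all 45037 probe sets, 4338 were then at that unadjusted p, against 2595 in the main fit. Over all probe sets the averaged contrast called 27, but 142 without the library labelled MT8m replicate 1 and 5 without MT4m replicate 1, and at 4 months 0 became 24 with only those 4 arrays.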

Other observations

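Of the 29 members with more than 1 probe set, 11 had 1 sign of the averaged genotype difference in all their probe sets and 18 had both signs. Over all 113 probe sets of the members, 15 were at an unadjusted p under 0.05, all of them lower, and 0 at an adjusted p under 0.05. Of all 45037 probe sets, 2595 were at that unadjusted p in either direction and 27 (0.06%) at that adjusted p. Dimmer probe sets of Spag16, Cfap52 and Cfap54 lay between -0.12 and 0.07, and none was at an unadjusted p under 0.05. The 3 of the 15 that were not the brightest belonged to intraflagellar transport genes. Ift122 had a dimmer probe set at -0.37 (unadjusted p = 0.0177, limma) beside its brightest at -0.28. Ift27 had -0.44 (unadjusted p = 0.0159, limma) and -0.36 (unadjusted p = 0.0499, limma) beside its brightest at -0.39. All 3 Ift27 probe sets were lower at both ages, between -0.60 and -0.50 at 4 months and between -0.29 and -0.18 at 8 months.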
